A study of Mus musculus with 187 samples.

Results

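DNA methylation reprogramming genes are the enzymes and chromatin proteins that remove, copy, place or guard DNA methylation as the embryo takes over from sperm and egg. The set was defined by gene symbol and holds 10 genes: Dppa3, Tet3, Tdg, Dnmt1, Uhrf1, Dnmt3a, Dnmt3b, Dnmt3l, Zfp57 and Trim28. Of these, 9 are among the 8735 genes of the table of 2-cell embryos given sperm RNA and the 8805 genes of the table of 2-cell embryos given tRNA fragments, and all 10 are among the 23534 features of the table of 4-cell embryos. Tdg is the member that neither 2-cell table lists, and it is listed at 0 in all 55 embryos of the 4-cell table.

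The study asked what small RNAs of sperm do to the transcripts of the early embryo. Zygotes of the mouse strain FVB came from in vitro fertilisation in which both parents ate a control diet. RNA was injected 2 h later, and each embryo was sequenced singly, as a late 2-cell embryo 32 h into development or as a 4-cell embryo. In the first 2-cell table, small RNA of control sperm went into 42 embryos and small RNA from sperm of males on a low protein diet into 46, both at 0.5 ng/µl per the file headers. In the second, 26 embryos had received tRF-GlyGCC with modified bases, 6 had received tRF-GluCTC, and 11 had received H3.3-GFP mRNA. A tRF is a piece cut from a tRNA, here from the glycine or the glutamate tRNA with that anticodon, and GFP is a fluorescent protein that marks injected embryos. The 4-cell groups were 27 embryos with an antisense oligonucleotide to tRF-GlyGCC and 28 with GFP mRNA. Another labelled antisense embryo matched no column and is not analysed here. The authors' deposited comparison table names the injected 4-cell group as unmodified tRF where the labels name an antisense oligonucleotide, so its identity is uncertain and the labels were followed. Embryos were collected for GFP signal, per the labels' protocols, although the label of the injected RNA names GFP only in the control groups, and the design text speaks of small RNAs combined with the GFP control RNA.

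In background terms, the methylation of the gamete genomes is largely erased between fertilisation and the blastocyst, and imprinted regions are spared. TET3 oxidises 5-methylcytosine, mainly in the paternal pronucleus, and DPPA3 (also called STELLA) shields the maternal genome from that oxidation and limits UHRF1 on chromatin. UHRF1 recognises half-methylated DNA after replication and brings in DNMT1, which copies the methylation to the new strand. DNMT3A and DNMT3B place new methylation, DNMT3L is their cofactor without catalytic activity of its own, and ZFP57 binds methylated imprinted regions and recruits the corepressor TRIM28. TDG is a DNA glycosylase that removes oxidised forms of methylcytosine. Many of these proteins are loaded into the egg as protein or RNA, so transcript level in the embryo need not follow protein level.

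Total counts over the genes listed, which need not be the whole library, ran from 643981 to 4563539 per 2-cell embryo, with group medians of 1808962 to 2291543. The 4-cell values are FPKM, which keep no depth, and the number of features at 1 FPKM or more ran from 6644 to 11496. Control sperm RNA replicates 22 and 26 had the lowest totals among their group, at 664584 and 678326, and antisense replicates 19 and 9 had the fewest detected features in theirs, at 6644 and 8687. Replicate numbers only name embryos. Each of the 8 markers of the 2-cell embryo on the list used here was above 0 in at least 1 embryo of every group. Of 11 cumulus and granulosa markers, 10 are not listed in the 2-cell tables, while the remaining one, Amhr2, had medians of 156 to 189.6 CPM over the 2-cell groups and of 105 and 108.6 FPKM in the 4-cell groups. None of the 7 sperm markers is listed in the 2-cell tables, and at the 4-cell stage each had a median of 0 in both groups, with a highest value of 9.46 FPKM, for Prm2. Embryos carry a code at the end of their titles that the headers of the 2-cell tables call a date, and this is called the batch here, lettered A to F with sperm RNA, G and H with tRFs, and J to R (no O) at the 4-cell stage. Batch H held every tRF-GluCTC embryo, and batch R held GFP embryos only. Levels of an embryo are relative to its other transcripts, so they do not give its amount of RNA, in total or per cell. No label names the litter or the fertilisation of an embryo. The titles of 2-cell embryos also carry an F number, which may group them and was not in the main fits. The p-values therefore reflect only how these embryos vary, taken as independent.

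Reads of 4 members can also come from near-identical copies elsewhere in the genome, and the authors' counting is not given in the sources used here. In the transcripts of the GENCODE M21 annotation (GRCm38), 66.3% of the 50-base windows of the Tdg transcript occur unchanged in transcripts of 5 other genes, 47.4% of them in the processed pseudogene Tdg-ps alone. The same shares were 18.9% for Uhrf1, mostly shared with the pseudogene Gm5648, 17.7% for Dppa3, mostly shared with Dppa3-ps, and 11.5% for Dnmt3b, all shared with the related methyltransferase gene Dnmt3c. The other 6 members shared no window. Levels of Tdg, Uhrf1, Dppa3 and Dnmt3b are therefore uncertain to the extent that such reads were split or dropped. A 90-base stretch of coding sequence of each of the 4 members is printed below with its copy, as annotated transcript sequence on GRCm38. Each stretch was chosen for having the fewest differences, but at least 1. It therefore shows a pair where it is most alike short of identity, not over its whole length. Each printed pair differs at 1 base, which is in capitals. The Dppa3 stretch lies at chr6:122628655-122628744 on the plus strand and its copy at chrX:37625844-37625933 on the minus strand. The Dnmt3b stretch lies at chr2:153670334-153670423 on the plus strand and that of Dnmt3c at chr2:153713511-153713600 on the plus strand. The Uhrf1 stretch lies at chr17:56312864-56312953 on the plus strand and its copy in Gm5648 at chrX:121336471-121336560 on the minus strand. The Tdg stretch lies at chr10:82638740-82638829 on the plus strand and that of Tdg-ps at chr15:82516474-82516563 on the plus strand.
Dppa3: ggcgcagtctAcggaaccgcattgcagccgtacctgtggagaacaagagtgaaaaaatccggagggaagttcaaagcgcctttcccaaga
Dppa3-ps: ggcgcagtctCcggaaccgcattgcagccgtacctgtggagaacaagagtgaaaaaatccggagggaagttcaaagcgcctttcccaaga
Dnmt3b: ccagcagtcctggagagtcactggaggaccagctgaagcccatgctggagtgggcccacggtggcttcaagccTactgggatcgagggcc
Dnmt3c: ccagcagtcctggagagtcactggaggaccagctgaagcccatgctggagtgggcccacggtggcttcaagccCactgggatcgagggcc
Uhrf1: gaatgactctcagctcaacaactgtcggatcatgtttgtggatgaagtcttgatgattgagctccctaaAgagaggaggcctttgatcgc
Gm5648: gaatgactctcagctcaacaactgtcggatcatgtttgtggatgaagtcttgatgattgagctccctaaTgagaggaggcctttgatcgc
Tdg: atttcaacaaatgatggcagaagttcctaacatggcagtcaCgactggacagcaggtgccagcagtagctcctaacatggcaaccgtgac
Tdg-ps: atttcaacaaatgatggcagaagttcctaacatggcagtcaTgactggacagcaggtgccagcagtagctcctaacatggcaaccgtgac
Over such a stretch only reads that cover the base in capitals tell the gene from its copy. Tdg is the member with the largest shared portion, and its row holds 0 in every 4-cell embryo. Of the 23534 features in that table, 3154 were at 0 in every embryo. The 0 of Tdg may be a failed estimate and is given only as listed.

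Dppa3 (chr6:122626424-122630271, GRCm38) was by far the most abundant member per length in every group. Levels between genes are compared here as CPM per kilobase of the longest transcript at the 2-cell stage and as FPKM at the 4-cell stage. In the embryos given control sperm RNA the median of Dppa3 was 3207 CPM per kb, the second highest of 8422 genes shared by the tables, and Zfp57, the next member, had 105 CPM per kb. Over the 7 groups Dppa3 ranked between the second and the 8th gene, its median was between 14.4 and 74.9 times that of the next member, and its lowest embryo lay above the highest embryo of that next member in each group. After Dppa3, the 2-cell order in control embryos was Zfp57, Trim28 (66.0 CPM per kb), Uhrf1 (58.8), Dnmt3l (31.6), Dnmt1 (23.9), Tet3 (22.98), Dnmt3a (14.9) and Dnmt3b (4.23). The order was the same with low protein sperm RNA and with tRF-GluCTC, and Tet3 stood before Dnmt1 with GFP and with tRF-GlyGCC. Apart from Dppa3, the ranges of neighbours in the order overlapped in every group and so do not separate them between embryos. Within embryos some neighbours kept their order, such as Zfp57 above Uhrf1 in 28 of 28 GFP and 27 of 27 antisense 4-cell embryos and Dnmt1 above Dnmt3a in 11 of 11 GFP 2-cell embryos, while Dnmt1 was above Tet3 in 17 of 42 control and 20 of 46 low protein embryos.

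At the 4-cell stage the order of medians in GFP embryos was Dppa3 (4809.9 FPKM), Trim28 (64.2), Zfp57 (43.03), Uhrf1 (15.99), Dnmt1 (12.05), Dnmt3l (11.5), Dnmt3a (10.6), Dnmt3b (5.92) and Tet3 (4.29). Antisense embryos had the same order. Within single embryos, Zfp57 was above Trim28 per length in 32 of 42 control and 39 of 46 low protein 2-cell embryos and in all 26 tRF-GlyGCC embryos, while Trim28 was above Zfp57 in 23 of 28 GFP and 19 of 27 antisense 4-cell embryos. The tables were normalised separately and come from different batches, so stage and table cannot be told apart, and no test was made across them. Dnmt3a was above Dnmt3b in 39 of 42 control embryos and in all 46 low protein embryos. Uhrf1 was above Dnmt1 in 38 of 42 control and 22 of 28 GFP 4-cell embryos.

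**Figure D1:**
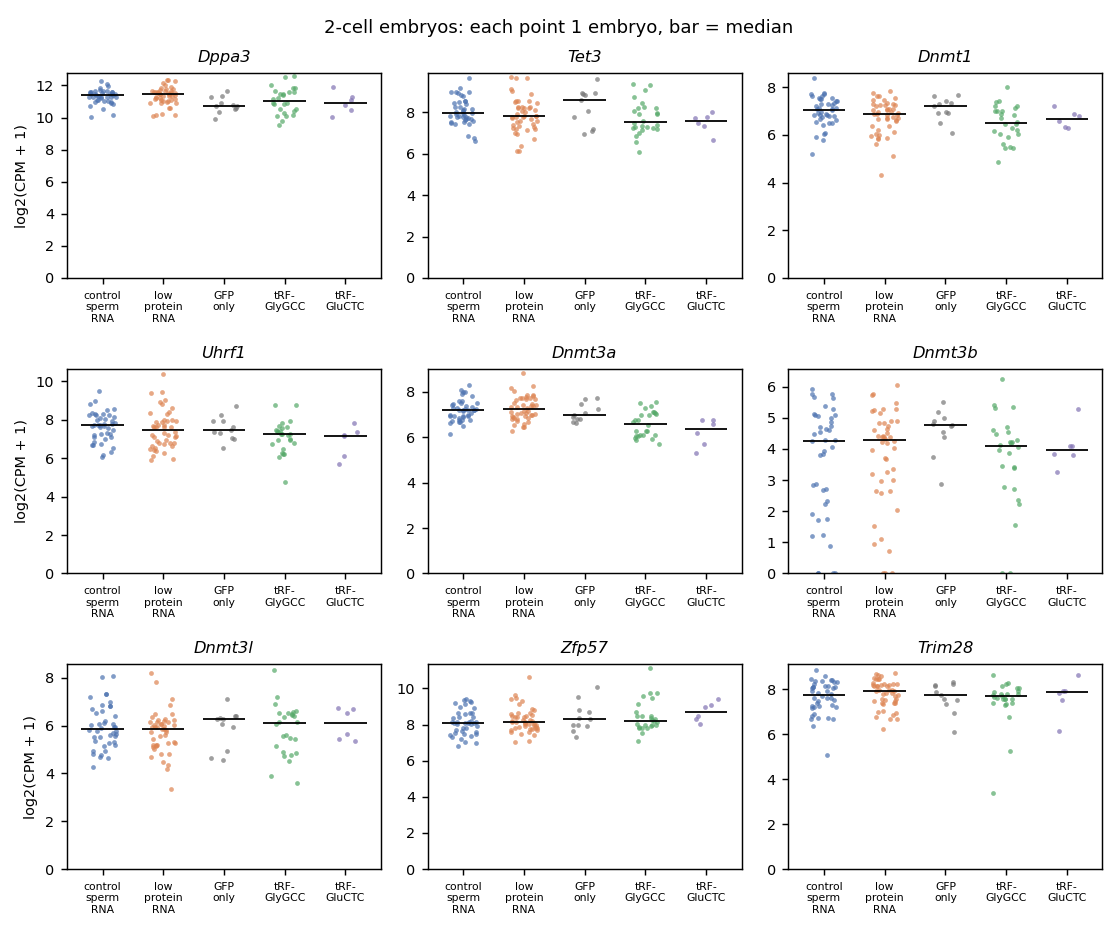
Level of the 9 members listed at the 2-cell stage in log2(CPM + 1), 1 point per embryo, with the group median as a bar, for 42 control sperm RNA, 46 low protein sperm RNA, 11 GFP, 26 tRF-GlyGCC and 6 tRF-GluCTC embryos. All groups overlap for every gene, Dppa3 sits highest, and Dnmt3b reaches 0 in 4 control, 3 low protein and 2 tRF-GlyGCC embryos.

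**Figure D2:**
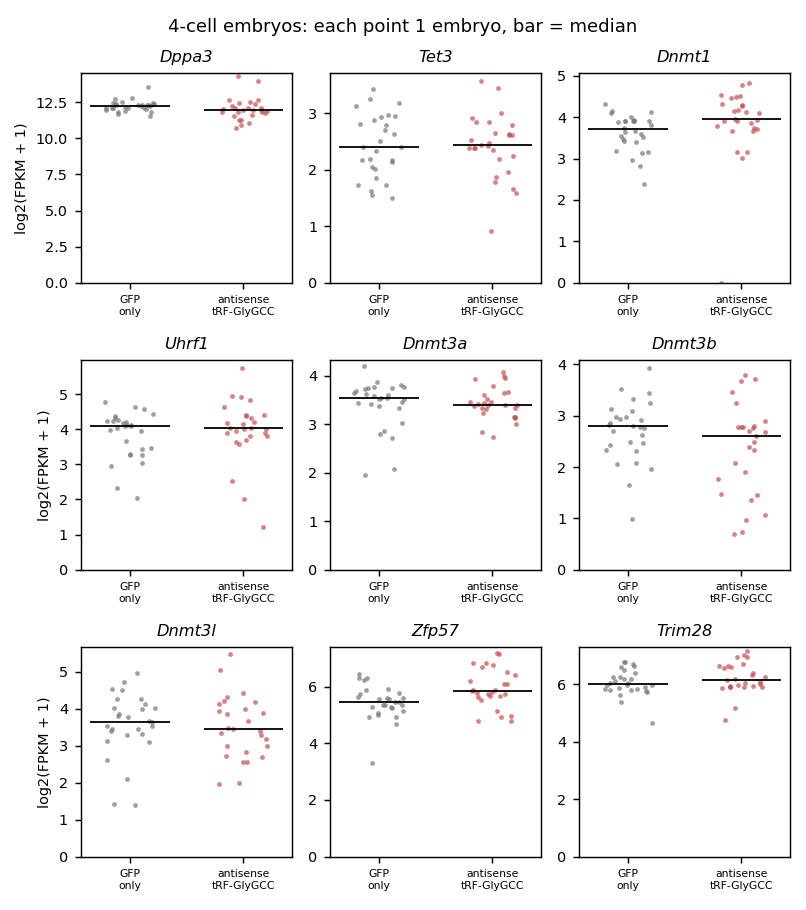
Level of 9 members at the 4-cell stage in log2(FPKM + 1), 1 point per embryo, with the group median as a bar, for 28 GFP and 27 antisense embryos. The groups overlap for every gene, and the antisense median of Zfp57 lies above the GFP median.

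The first comparison asked whether small RNA from sperm of males on a low protein diet alters these genes relative to control sperm RNA. None of the 9 members tested passed an adjusted p of 0.05 by edgeR's quasi-likelihood test with Benjamini-Hochberg adjustment, beside 0.0917% of all 8721 genes tested. At an unadjusted p under 0.05 there were 0 of 9 members beside 3.99% of all genes, and DESeq2 and limma voom with sample quality weights also called 0 members. Of the estimates, 4 were above 0 and 5 below, beside 4702 of the 8721 genes above 0. The members' median rounds to no change, where the median of all genes was 0.02 on the log2 scale.

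Dppa3, the protector of maternal methylation, had nearly the same level in both groups. Its lowest, median and highest values were 1052, 2671 and 4925 CPM with control and 1074, 2776 and 5276 CPM with low protein sperm RNA. The fold of low protein over control was 1.00, with a 95% interval of 0.865 to 1.16, the narrowest interval of the members in this comparison. Tet3, the oxidising enzyme, had 98.2, 251 and 802 CPM with control and 68.7, 227 and 837 CPM with low protein RNA, a fold of 0.9745 (95% interval 0.795 to 1.19). Both genes covered nearly the same range in the 2 groups, with 3 of 46 low protein embryos below the lowest control embryo for Tet3 and 0 of 46 for Dppa3.

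Among the maintenance genes, Dnmt1 had lowest, median and highest values of 36.3, 132 and 334 CPM with control RNA and 18.7, 117 and 229 CPM with low protein RNA. Of the low protein embryos 29 of 46 lay below the control median, and the groups overlapped widely. The log2 fold change was -0.21 ± 0.13 (SE, edgeR p = 0.117, Benjamini-Hochberg adjusted p = 1.0), negative in 5 of 6 batches. Uhrf1 had 66.1, 211 and 724 CPM with control and 59.2, 179 and 1328 CPM with low protein RNA. Its highest value came from low protein replicate 36 of batch C, which also had the highest Zfp57 and Dnmt3a of the table, and the log2 fold change was -0.029 ± 0.18.

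Among the de novo genes, Dnmt3l had 18.3, 57.5 and 269.9 CPM with control and 9.24, 57.2 and 289 CPM with low protein RNA. Both medians coincided to within 1 CPM, while the fitted log2 fold change was -0.28 ± 0.20 (edgeR p = 0.158, Benjamini-Hochberg adjusted p = 1.0), negative in 5 of 6 batches. Dnmt3a, with medians of 145 and 148 CPM, had a log2 fold change of 0.12 ± 0.12. Dnmt3b, the lowest member, was at 0 counts in 4 control and 3 low protein embryos, had medians of 18.3 and 18.4 CPM, and had the widest interval of the fold, 0.599 to 1.67.

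The imprint protectors had the estimates furthest above 0, and neither passed the test. Zfp57 had 110.4, 274 and 689 CPM with control and 132, 277 and 1568 CPM with low protein RNA, and 24 of 46 low protein embryos lay above the control median. Its log2 fold change was 0.25 ± 0.14 (edgeR p = 0.0725, Benjamini-Hochberg adjusted p = 1.0), the smallest p of the 9 members, and it was positive in 4 of 6 batches. Trim28 had 32.7, 214 and 455 CPM and 73.4, 241 and 423 CPM, with a log2 fold change of 0.17 ± 0.13. Neither gene separated the groups.

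The next comparisons asked what the synthetic tRFs do to the same genes. tRF-GlyGCC and tRF-GluCTC were each compared with the same 11 GFP embryos, so the comparisons share their controls and their values are given side by side. By edgeR with Benjamini-Hochberg adjustment, 0 of 9 members passed with tRF-GlyGCC and 0 of 9 with tRF-GluCTC, beside 0% of the 8804 genes tested in either comparison. At an unadjusted p under 0.05 there were 1 of 9 members with tRF-GlyGCC, beside 3.24% of all genes, and 0 of 9 with tRF-GluCTC, beside 3.46%. DESeq2 and limma voom with sample quality weights called 0 members in both. Estimates below 0 were 6 of 9 with tRF-GlyGCC and 7 of 9 with tRF-GluCTC, beside 3965 and 4436 of the 8804 genes tested. The members' medians were -0.32 and -0.12 on the log2 scale, where the medians of all genes were 0.04 and -0.0058. Members also vary together across embryos, so their signs are not independent of each other.

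Dnmt3a had the smallest p of the members in both comparisons. Its lowest, median and highest values were 98.0, 126.3 and 208 CPM with GFP, 51.1, 96.1 and 186 CPM with tRF-GlyGCC and 38.5, 83.04 and 108 CPM with tRF-GluCTC. Of the tRF-GlyGCC embryos, 13 of 26 lay below the lowest GFP embryo, as did 4 of 6 tRF-GluCTC embryos, and the upper ends of the groups overlapped. The log2 fold change was -0.41 ± 0.20 with tRF-GlyGCC (edgeR p = 0.0456, Benjamini-Hochberg adjusted p = 1.0) and -0.60 ± 0.31 with tRF-GluCTC (p = 0.0574, adjusted p = 1.0). For tRF-GlyGCC the difference of mean log2 values was -0.16 in batch G and -0.69 in batch H, and for tRF-GluCTC it was -0.83 in batch H. Without GFP replicate 8 the fitted values were -0.29 (edgeR p = 0.168) and -0.44 (edgeR p = 0.155).

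Tet3 had 124, 381 and 776 CPM with GFP, 66.9, 185 and 672 CPM with tRF-GlyGCC and 102.1, 194 and 262 CPM with tRF-GluCTC. The 6 tRF-GluCTC embryos had 102.1, 160.4, 177, 212, 217 and 262 CPM, all below the GFP median, and 22 of 26 tRF-GlyGCC embryos lay below it. Below the lowest GFP embryo lay 3 of 26 tRF-GlyGCC embryos and 1 of 6 tRF-GluCTC embryos, so the groups overlapped. These counts do not take batch into account, and the Tet3 median over all groups was 267 CPM in batch G and 162 CPM in batch H. The difference of mean log2 values from GFP was -0.62 in batch G and -0.32 in batch H for tRF-GlyGCC. For tRF-GluCTC it was -0.45 in batch H. The log2 fold changes were -0.50 ± 0.29 (edgeR p = 0.0892) and -0.84 ± 0.44 (p = 0.0635), the latter with a 95% interval of the fold of 0.300 to 1.03. These values rest in part on GFP replicate 8, without which they were -0.25 (edgeR p = 0.414) and -0.53 (edgeR p = 0.236).

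Dnmt1 had 66.3, 148 and 205 CPM with GFP, 28.1, 90.2 and 260.3 CPM with tRF-GlyGCC and 77.8, 102.2 and 148 CPM with tRF-GluCTC. Below the GFP median lay 23 of 26 tRF-GlyGCC embryos and 6 of 6 tRF-GluCTC embryos, and tRF-GlyGCC replicate 14 had the highest value of that table. The log2 fold changes were -0.41 ± 0.23 (edgeR p = 0.0788) and -0.11 ± 0.34 (p = 0.760). All tRF-GluCTC embryos are in batch H, where the difference of mean log2 values of Dnmt1 from GFP was -0.10. Uhrf1, which brings DNMT1 to DNA, had medians of 175, 151 and 144 CPM in the same order of groups, with log2 fold changes of -0.32 ± 0.27 and -0.50 ± 0.42. Without GFP replicate 8 the Uhrf1 values were -0.10 and -0.23.

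Dppa3 differed in sign from these genes. It had 975, 1656 and 3284 CPM with GFP, 732, 2111 and 6229 CPM with tRF-GlyGCC and 1025, 1955 and 3880.1 CPM with tRF-GluCTC. The 6 tRF-GluCTC embryos had 1025, 1422, 1771, 2139, 2500.2 and 3880.1 CPM. Of the tRF-GlyGCC embryos 17 of 26 exceeded the GFP median, 5 of them the whole GFP range, while 2 lay below that range. The log2 fold changes were 0.48 ± 0.27 (edgeR p = 0.0761, Benjamini-Hochberg adjusted p = 1.0) and 0.46 ± 0.38 (p = 0.238).

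The remaining members had estimates close to 0 or wide intervals. Zfp57 had 156, 313.4 and 1096 CPM with GFP and 134, 296 and 2226 CPM with tRF-GlyGCC, where replicate 21 supplied the highest value, and log2 fold changes of 0.088 ± 0.31 and -0.12 ± 0.46. Trim28 had medians of 215, 204 and 233 CPM with GFP, tRF-GlyGCC and tRF-GluCTC, and tRF-GlyGCC replicate 18 had 9.29 CPM, the lowest of all 2-cell embryos. Dnmt3l had log2 fold changes of 0.037 ± 0.35 and -0.069 ± 0.52, and Dnmt3b of -0.49 ± 0.47 and -0.54 ± 0.72. For Dnmt3b the 95% interval of the tRF-GluCTC fold ran from 0.252 to 1.87, the widest of the members.

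The pair of tRFs was also compared directly, with the fit of the same table. By edgeR with Benjamini-Hochberg adjustment 0 of 9 members passed between tRF-GlyGCC and tRF-GluCTC, beside 0% of the 8804 genes tested. At an unadjusted p under 0.05 there were 0 of 9 members, beside 2.2% of all genes, and DESeq2 called 0 members. The log2 difference furthest above 0 was that of Tet3, 0.35 ± 0.39 with a fold interval of 0.743 to 2.18, and the furthest below 0 was that of Dnmt1, -0.30 ± 0.29 with an interval of 0.538 to 1.22. For Dnmt3a, it was 0.19 ± 0.27 with an interval of 0.779 to 1.66. For Dppa3 it was 0.025 ± 0.33 with an interval of 0.640 to 1.62. With 6 tRF-GluCTC embryos these intervals do not show that the tRFs act alike.

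At the 4-cell stage the antisense group was compared with GFP. Of the 10 members, 8 passed the requirement of a mean of 5 FPKM and were tested, Tet3 lay below it and Tdg was at 0. By limma with Benjamini-Hochberg adjustment 0 of 8 passed, beside 0.0276% of the 7237 features tested. At an unadjusted p under 0.05 there was 1 of 8 members, Zfp57, beside 10.9% of all features, and limma with array quality weights called 0 members. Estimates above 0 were 6 of 8, beside 3814 of the 7237 features. The members' median was 0.13 on the log2(FPKM + 1) scale, where the median of all features was 0.01. This scale understates the change of low genes.

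Zfp57, the zinc finger protein that protects imprints, had the largest estimate. Its lowest, median and highest values were 8.80, 43.03 and 87.03 FPKM with GFP and 26.4, 56.9 and 147 FPKM with antisense. With antisense, 22 of 27 embryos exceeded the GFP median and 7 of them every GFP embryo, while the lower parts of the groups overlapped. The difference was 0.44 ± 0.17 on the log2(FPKM + 1) scale (limma p = 0.0132, Benjamini-Hochberg adjusted p = 0.284), which ranks 336 of 7237 by p. It was positive in 6 of the 7 batches with both groups, between 0.05 and 0.67, and -0.0091 in batch K. The authors' deposited table gives 54.6 FPKM for its control and 79.9 FPKM for the group it names as unmodified tRF, with p = 0.00385 and q = 0.146. Over the alternatives tried, the limma adjusted p ran from 0.141 to 0.623. Markers of other stages had medians that moved the same way: all 8 of the 2-cell embryo were higher with antisense, among them Tdpoz4 (123 against 51.9 FPKM) and Arg2 (6.19 against 2.204 FPKM), as were 8 of the 10 maternal ones, among them Gdf9 (24.99 against 18.4 FPKM). Their summed levels covered 549 to 3698 FPKM with GFP and 532 to 3785 FPKM with antisense for the former. For the latter they covered 146 to 1028 and 123 to 620.4 FPKM in the same order. Medians of the sums were closer, 1092 FPKM with GFP and 1158 FPKM with antisense for the 2-cell markers. For the maternal markers they were 269.5 and 335.8 FPKM. No marker was at 0 in all embryos of a group. The part of these markers in the Zfp57 difference was not tested.

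Trim28, the corepressor that ZFP57 recruits, had 24.4, 64.2 and 110.4 FPKM with GFP and 26.2, 69.8 and 144 FPKM with antisense. The lowest antisense value came from replicate 19, and 17 of 27 antisense values exceeded the GFP median. The difference was 0.21 ± 0.14 on the log2(FPKM + 1) scale (limma p = 0.126).

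Dnmt1 had 4.18, 12.05 and 18.8 FPKM with GFP and 0, 14.5 and 27.2 FPKM with antisense. The 0 is that of antisense replicate 19, the embryo with the fewest detected features, while 21 of 27 antisense values exceeded the GFP median and 7 exceeded every GFP value. The difference was 0.26 ± 0.20 (limma p = 0.197), and without replicate 19 it was 0.35 with an unadjusted p of 0.0155 by limma. Uhrf1 had 3.10, 15.99 and 26.5 FPKM with GFP and 1.32, 15.3 and 52.5 FPKM with antisense, a wider range at both ends, and a difference of 0.18 ± 0.22.

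Dppa3 had 2977, 4809.9 and 11819 FPKM with GFP and 1649, 3961 and 20391 FPKM with antisense. Of the antisense embryos 20 of 27 lay below the GFP median and 6 below the lowest GFP embryo, but antisense replicates 9 and 19, with 20391 and 15835 FPKM, lay above the highest. The difference was -0.11 ± 0.17 (limma p = 0.524). Those replicates also had the fewest detected features of their group, and what part that has in their Dppa3 level was not tested. Their Uhrf1 values, 3.03 and 1.32 FPKM, were the lowest of the table.

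Of the de novo genes, Dnmt3b had 0.984, 5.92 and 14.2 FPKM with GFP and 0.623, 5.12 and 12.8 FPKM with antisense, with 20 of 27 antisense embryos below the GFP median and a difference of -0.30 ± 0.21 (limma p = 0.165). Dnmt3a, with 2.88, 10.6 and 17.5 FPKM and 5.70, 9.55 and 15.9 FPKM, and Dnmt3l, with medians of 11.5 and 9.89 FPKM, had differences of 0.065 ± 0.13 and 0.074 ± 0.22. Tet3 had 1.83, 4.29 and 9.78 FPKM with GFP and 0.881, 4.38 and 10.9 FPKM with antisense, and in a fit with the minimum mean lowered to 1 FPKM its difference was -0.12 ± 0.16 (limma p = 0.448). The authors' deposited table marks Tet3 and Tdg as not tested.

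**Figure D3:**
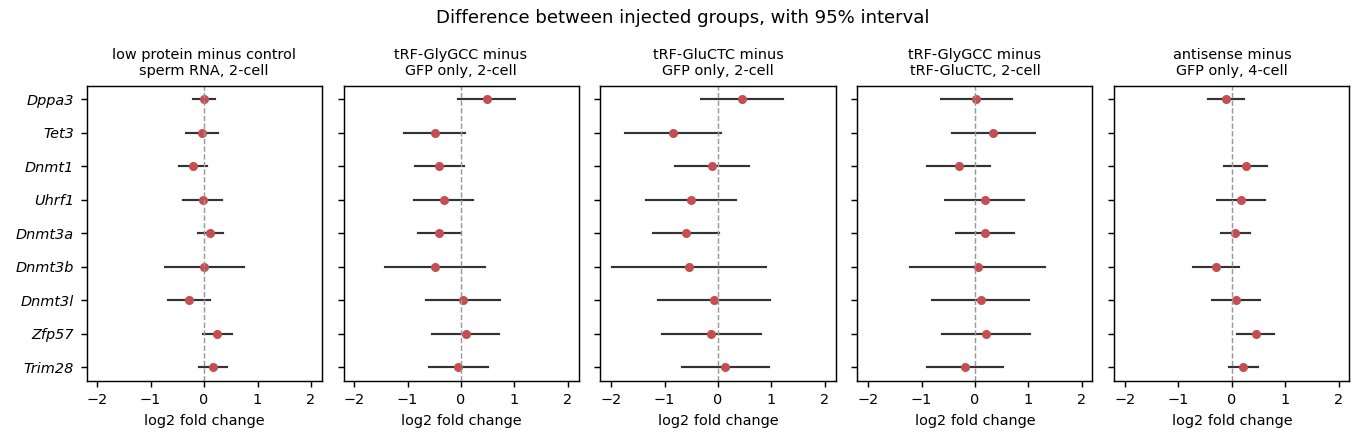
Log2 fold change of each member, on the log2 CPM scale of edgeR for the 4 comparisons of 2-cell embryos and on the log2(FPKM + 1) scale of limma for the 4-cell comparison, as a point with its 95% interval. Intervals include 0 except for Dnmt3a with tRF-GlyGCC (log2 -0.41) and Zfp57 with antisense (log2 0.44), neither of which passed after adjustment, and Tet3 has no point in the last panel.

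Among the 2-cell embryos given sperm RNA, 3 members differed between batches after adjustment, while 0 differed between diets. Zfp57 (edgeR Benjamini-Hochberg adjusted p = 0.00216), Tet3 (0.00705) and Uhrf1 (0.0326) passed the test of all batch terms, with the diet in the model, which is 3 of 9 members beside 9.22% of the 8721 genes tested. The batch median of Zfp57 ran from 225 CPM in batch E to 399 CPM in batch F, and that of Tet3 from 206 to 356 CPM in the same batches. That of Uhrf1 ran from 107 CPM in batch B to 383 CPM in batch D, which holds 3 embryos, and was 311.9 CPM in batch C. The calls were not kept when batch C or batch E was left out. Without batch C 0 members passed (adjusted p of 0.0539, 0.130 and 0.332 for Zfp57, Tet3 and Uhrf1 by edgeR with Benjamini-Hochberg adjustment), and without batch E 0 passed as well (0.292, 0.224 and 0.174). Batch E holds 42 embryos, so lost power and that batch's own part cannot be told apart. The shares of all genes that passed in those fits are not reported here. The call of Uhrf1 was also lost when low protein replicate 23, 26, 32 or 36 was left out (Benjamini-Hochberg adjusted p by edgeR of 0.0776, 0.0515, 0.0614 and 0.171). Dppa3, with batch medians of 2276 to 4975 CPM, Dnmt1, Trim28 and the de novo genes did not pass.

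Between batches G and H of the tRF table, 0 of 9 members differed by edgeR with Benjamini-Hochberg adjustment, beside 1.56% of 8804 genes, with unadjusted p of 0.00912 for Dnmt1, 0.0229 for Dnmt3a and 0.0453 for Zfp57. Limma voom with sample quality weights also called 0. Among 4-cell embryos 0 of 8 members passed by limma with Benjamini-Hochberg adjustment, beside 4.38% of 7237 features, with unadjusted p under 0.05 for Dnmt3l (0.0196) and Zfp57 (0.0356). Zfp57 thus had an unadjusted batch p under 0.05 in each of the 3 tables, but passed after adjustment only with sperm RNA. Its Benjamini-Hochberg adjusted p was 0.346 with tRFs by edgeR and 0.179 at the 4-cell stage by limma. The share of all genes at an unadjusted batch p under 0.05 is not reported here. Without antisense replicates 9 and 19, a choice made after seeing the data, Trim28 and Dnmt3l passed the 4-cell batch test (limma Benjamini-Hochberg adjusted p = 0.0213 and 0.0348). The share of all features that passed in that fit is not reported here.

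**Figure D4:**
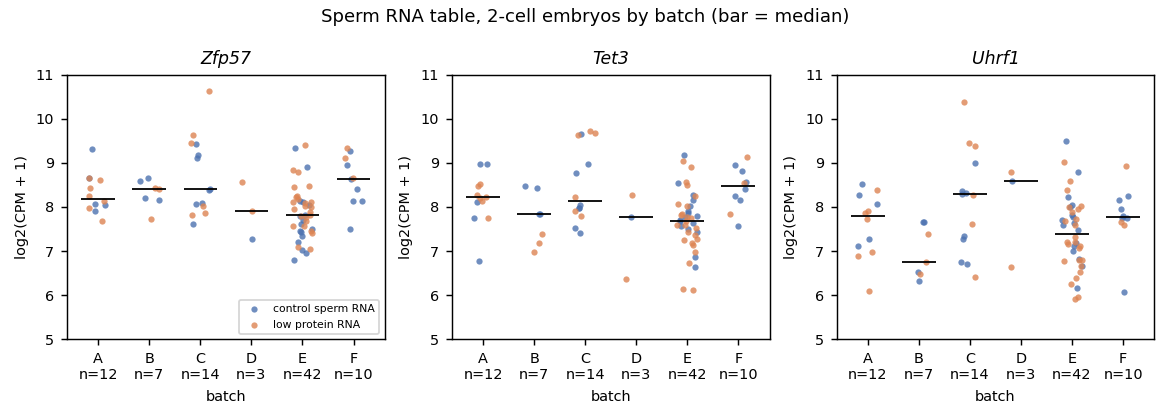
Level of Zfp57, Tet3 and Uhrf1 in log2(CPM + 1) for the 88 embryos given sperm RNA, by batch, 1 point per embryo coloured by the diet of the sperm donor, with the batch median as a bar. Batch E (42 embryos) lies low for Zfp57 and Tet3, batch B (7 embryos) lies low for Uhrf1, and both diets are mixed within the batches.

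Pairs of members whose proteins act together or on each other were compared across embryos, after group and batch means had been removed, in log2(CPM + 1) or log2(FPKM + 1). Of 6 pairs planned, that of Tet3 and Tdg could not be run, and the other 5 gave 15 tests over the 3 tables, with 88, 43 and 55 embryos. By a two-sided permutation test within group and batch with Benjamini-Hochberg adjustment over the 15, Pearson's r passed in 8 and Spearman's rho in 2, those of Dppa3 and Tet3 with sperm RNA and of Dnmt1 and Uhrf1 at the 4-cell stage. As background, the r of the first gene of a pair with every gene was lower than that of the pair for 83.1% of genes for Dnmt3a and Dnmt3l with sperm RNA, 24.2% for Zfp57 and Trim28 with tRFs, 29.2% for Dppa3 and Tet3 at the 4-cell stage and 95.4% for Dnmt1 and Uhrf1 there. The same libraries give both values of a pair, and the correlations are small for most pairs.

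Dnmt1 and Uhrf1, the maintenance pair, correlated most clearly among 4-cell embryos, with r = 0.69 (permutation adjusted p = 0.00555) and Spearman's rho = 0.47 (permutation adjusted p = 0.0339). Without the 2 embryos farthest from the median of Dnmt1 r was 0.62, and without antisense replicates 9 and 19 it was 0.46 (permutation adjusted p = 0.0410). In the 2-cell tables r was 0.19 with sperm RNA and 0.23 with tRFs, and neither passed (permutation adjusted p = 0.113 and 0.211). Whether the tables differ in this correlation was not tested.

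Dppa3 correlated negatively with Uhrf1 and Tet3 in the sperm RNA table. With sperm RNA r was -0.28 for Uhrf1 (permutation adjusted p = 0.0308, rho = -0.23 with permutation adjusted p = 0.0731) and -0.32 for Tet3 (permutation adjusted p = 0.0143, rho = -0.30 with permutation adjusted p = 0.0355), and without the 2 embryos farthest from the median of Dppa3 they were -0.24 and -0.30. With tRFs they were -0.081 and -0.049, and neither passed. Among 4-cell embryos they were -0.62 and -0.39 (permutation adjusted p = 0.0143 and 0.0308), and both rho had a permutation adjusted p of 0.0708. Those 4-cell relations rest on antisense replicates 9 and 19, without which r was -0.26 and -0.12 and neither passed (permutation adjusted p = 0.103 and 0.488). Set beside all genes, r with Dppa3 in the sperm RNA table was lower than that of Uhrf1 for 12.6% and than that of Tet3 for 7.72% of 6719 genes.

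Dnmt3a and its cofactor gene Dnmt3l had r above 0 in all tables, 0.25 with sperm RNA, 0.35 with tRFs and 0.44 among 4-cell embryos (permutation adjusted p = 0.0308, 0.0308 and 0.0846). The rho values were 0.17, 0.34 and 0.40, with permutation adjusted p of 0.149, 0.0708 and 0.0731. Zfp57 and Trim28 had r below 0 in the 2-cell tables, -0.24 and -0.39, and 0.30 among 4-cell embryos (permutation adjusted p = 0.0555, 0.0308 and 0.113). The rho values of that pair were -0.044, -0.31 and 0.14 (permutation adjusted p = 0.772, 0.0782 and 0.500), and the median absolute r of Zfp57 with all genes was 0.31 in the tRF table. The sign of that r thus differed between stages as a description, and the difference itself was not tested.

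**Figure D5:**
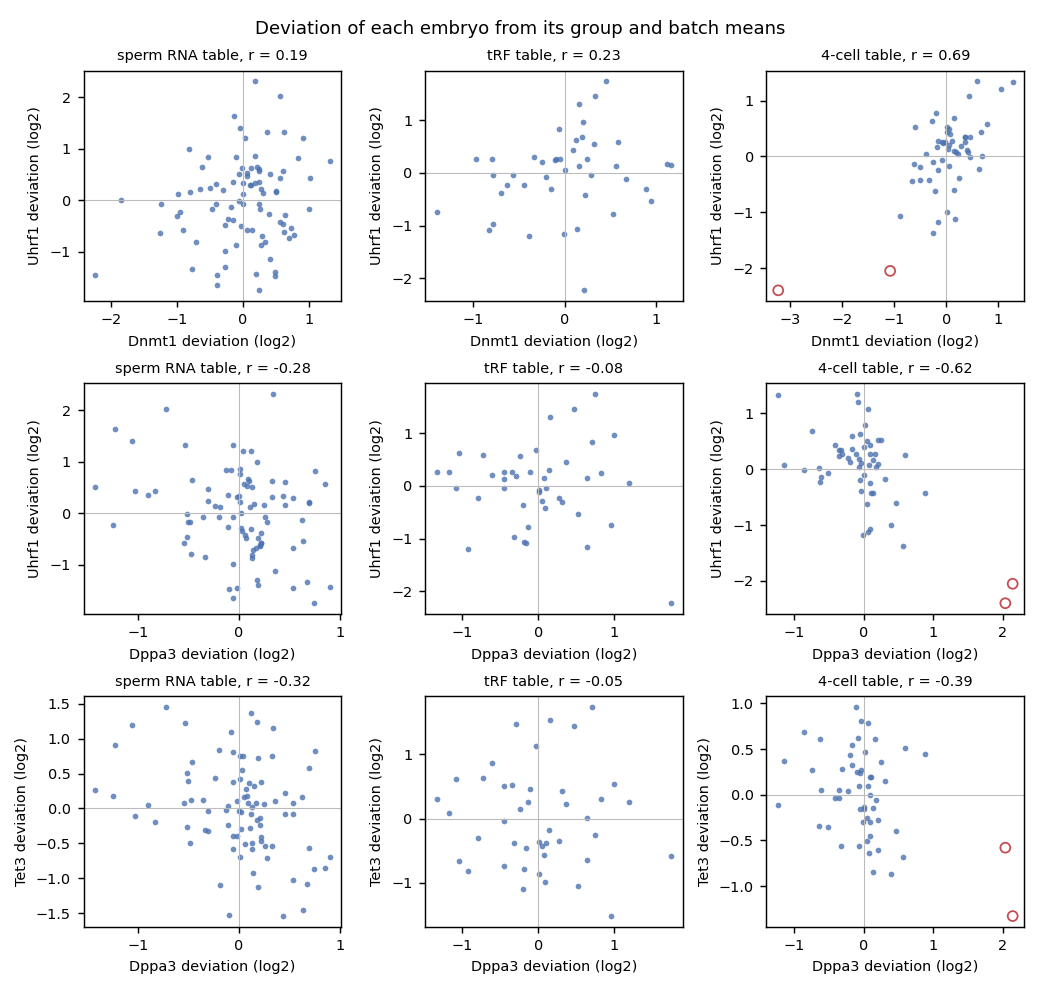
Deviation of each embryo from its group and batch means, in log2 units, for Dnmt1 and Uhrf1, Dppa3 and Uhrf1, and Dppa3 and Tet3, 1 panel per pair and table, with 88, 43 and 55 points. Open red circles mark antisense replicates 9 and 19 at the 4-cell stage, which lie at the edge of those panels, and without which the 4-cell r of Dppa3 goes from -0.62 to -0.26 with Uhrf1 and from -0.39 to -0.12 with Tet3.

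For each member the gene closest to it across the 88 sperm RNA embryos was found among 6571 genes with a mean of at least 20 CPM, as the highest Pearson r after group and batch means were removed (6572 for Dnmt3b). These values are descriptions, and the other tables give the same pair in other embryos. Tet3 was closest to Herpud2, with r = 0.80 in the sperm RNA table, 0.78 in the tRF table and 0.55 among 4-cell embryos. Dppa3 was closest to Ppp1r15a, a stress-induced phosphatase subunit gene, with r = 0.66, 0.21 and -0.37, so the sign turned at the 4-cell stage. Uhrf1 (0.72, 0.58 and 0.41) and Dnmt3a (0.57, 0.61 and 0.16) were both closest to the zinc transporter gene Slc39a10. Spearman's rho in the same order of tables was 0.78, 0.81 and 0.48 for Tet3 and 0.61, 0.26 and -0.15 for Dppa3. It was 0.63, 0.54 and 0.41 for Uhrf1 and 0.47, 0.61 and 0.20 for Dnmt3a.

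Dnmt1 was closest to Sec31a, a coat protein gene of transport vesicles, with r = 0.48, 0.46 and 0.65 in the 3 tables. Zfp57 was closest to Bcl2l10, a gene of the BCL2 family, with 0.63, 0.50 and 0.41, and these 3 values kept one sign. Dnmt3l was closest to Ift46 (0.70, 0.46 and 0.33), Dnmt3b to Stmn1 (0.47, 0.23 and -0.091) and Trim28 to Gtf3c6 (0.64, 0.61 and -0.30). Spearman's rho of these pairs was 0.32, 0.48 and 0.37 for Dnmt1 and 0.57, 0.29 and 0.36 for Zfp57. It was 0.69, 0.54 and 0.23 for Dnmt3l, 0.50, 0.24 and -0.049 for Dnmt3b, and 0.43, 0.28 and -0.19 for Trim28. Where rho lies well below r, a few extreme embryos may carry r, which was not tested. The median r of each member with all genes lay between -0.13 and 0.15 in every table. In the sperm RNA table each r is the highest of many by choice. The 99th percentile of r there ran from 0.33 for Dnmt1 to 0.66 for Tet3, so other genes came close to several of these values.

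The members also differed in how much they varied between embryos of one group and batch. Dnmt3a varied little for its abundance, with a biological coefficient of variation of 37.3% in the sperm RNA table where the trend at its level was 52.3%, and 39.7% against 62.7% in the tRF table. The ratio to the trend placed it at percentile 10.8, 2.70 and 2.02 of all genes in the sperm RNA, tRF and 4-cell tables, the lowest of the members tested in the latter pair of tables. Dppa3 lay at percentiles 10.1, 32.5 and 88.7, the last with antisense replicates 9 and 19 in the fit. Uhrf1 was the most variable for its level in the sperm RNA table, at percentile 79.1. Dnmt3b had the largest variation in absolute terms there, 108%, at percentile 69.4 for its low level.

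Other genes of the pathway were described by 6 lists of partners, and no gene of any list passed in any of the 5 comparisons by edgeR or limma with Benjamini-Hochberg adjustment. With low protein sperm RNA, 13 of 14 genes of the list of the TRIM28 repressor complex and imprint protectors had estimates above 0, with a median of 0.15 on the log2 scale. So did 9 of 10 maintenance partners, with a median of 0.090, beside 4702 of 8721 genes and a median of 0.02 over all genes. The TRIM28 list had 8 of 14 above 0 in each tRF comparison and 8 of 15 with antisense. Maintenance partners above 0 were 4 of 10 with tRF-GlyGCC, 6 of 10 with tRF-GluCTC, 2 of 10 between the tRFs and 4 of 8 with antisense. Genes at an unadjusted p under 0.05 with low protein RNA were 1 of 10 maintenance partners, 2 of 8 de novo regulators and 1 of 16 methyl donor genes. The counts were 0 of 15 oxidation and repair genes, 0 of 14 of the TRIM28 list and 0 of 3 methyl-CpG readers, beside 3.99% of all genes. Those under 0.05 were Kdm1b, a histone demethylase gene needed for imprints in oocytes (0.91 ± 0.32, edgeR p = 0.00566), its relative Kdm1a (0.63 ± 0.30, p = 0.0388), the chromatin remodeller gene Hells (0.53 ± 0.22, p = 0.0167) and Mtr, methionine synthase (0.68 ± 0.32, p = 0.0331). The smallest p among the TRIM28 list, the oxidation and repair genes and the methyl-CpG readers were those of Atrx (0.31 ± 0.19), Neil3 (0.48 ± 0.32) and Mbd3 (0.16 ± 0.35).

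With tRF-GluCTC, the chromatin remodeller gene Hells had a log2 fold change of 0.81 ± 0.38 against GFP (edgeR p = 0.0374), which did not pass after adjustment. At an unadjusted p under 0.05 there was 1 gene over the 6 lists with tRF-GlyGCC and 2 with tRF-GluCTC, of which Hells is one and the others are not reported here, beside 3.24% and 3.46% of all genes. The smallest p of 5 of the lists with tRF-GlyGCC were those of Wiz (-0.81 ± 0.48), Mbd4 (0.65 ± 0.42), Zfp42 (0.60 ± 0.46), Nsd1 (-0.30 ± 0.20) and Mbd3l2 (0.29 ± 0.26). With tRF-GluCTC those of 4 lists were of Ung (-0.68 ± 0.48), Atrx (-0.62 ± 0.40), Nlrp2 (-0.85 ± 0.61) and Mbd3l2 (0.52 ± 0.38). Between the tRFs they were those of Nlrp2 (0.97 ± 0.54), Mbd3 (1.00 ± 0.57), Mthfd1 (1.30 ± 0.80), Ung (0.64 ± 0.44), Atrx (0.48 ± 0.34) and Hdac1 (-0.46 ± 0.35).

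At the 4-cell stage, methyl donor synthesis had 4 of 16 genes above 0 with antisense, beside 3814 of 7237 features. Ahcy, which clears S-adenosylhomocysteine, had a difference of -0.80 ± 0.26 on the log2(FPKM + 1) scale (limma p = 0.00382, Benjamini-Hochberg adjusted p = 0.188), the smallest p of any list gene, and Shmt1 one of 0.40 ± 0.18 (limma p = 0.0342). Cbx1, a heterochromatin protein gene, had -0.39 ± 0.19 (limma p = 0.0438) and Mbd3l2 0.41 ± 0.18 (limma p = 0.0242). Ehmt2 (-0.41 ± 0.24), Neil3 (0.48 ± 0.27) and Nsd1 (-0.14 ± 0.13) had the smallest p of the remaining lists. None passed after adjustment. At an unadjusted p under 0.05 were 2 of 16 methyl donor genes, 1 of 15 of the TRIM28 complex and imprint protectors and 1 of 2 methyl-CpG readers. The counts were 0 of 8 maintenance partners, 0 of 12 oxidation and repair genes and 0 of 5 de novo regulators, beside 10.9% of all features.

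The members' promoters differ in the CpG letters that methylation acts on. RefSeq promoter windows (GRCm38.p6, 250 bases before to 50 after a start) matched 9 members with 18 windows, and Dppa3 had no entry. The dinucleotide CG, which reads the same on both strands, occurred 46, 47 and 18 times in the 3 windows of Dnmt3a, 30 times in that of Dnmt3b, 26 times in that of Tdg, 23 times in that of Trim28 and 22 times in that of Tet3, among 32851 windows in the table. Uhrf1 had 12 and 33 and Dnmt1 2, 12 and 33 in their alternative windows. Zfp57 had 4, 6 and 9 and Dnmt3l 6, 4 and 3 where the median of all windows was 7. At least 47 were found in 1.44% of all windows and at least 22 in 23.1%. Methylation itself was not measured in these embryos.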

How the data were processed

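RNA of single embryos was sequenced with a single-cell RNA-seq and Nextera protocol, per the labels' protocols, and Bowtie and the mm10 build are named in the submitters' processing notes. The authors deposited expected counts per gene for the 2-cell embryos, with 0 shown as 0.1, and FPKM for the 4-cell embryos, with 0 shown as 0.001. The deposited comparison table also holds the authors' p-values and q-values, and its group values are FPKM. Other steps: not given in the sources used here. For the tests, 0 was restored and expected counts were rounded. edgeR 4.0.16 (R 4.3.3, TMM, filterByExpr, quasi-likelihood) tested group with batch as a covariate, separately per 2-cell table, and levels are CPM after TMM scaling. FPKM were tested with limma 3.58.1 (trend, robust) on log2(FPKM + 1), keeping features whose mean reached 5 FPKM, with batch. Benjamini-Hochberg adjustment ran over all features of a table, with a threshold of 0.05. DESeq2 1.42.0 and limma with quality weights were alternatives. Intervals are 95% intervals of the fitted fold change. Pairs were tested with 100000 permutations within group and batch. The tests were checked on simulated data. The 10 members, the lists and the tests were chosen with earlier results of these data known. Every member was named, and of the pathway lists the gene with the smallest p per list and comparison, with others at an unadjusted p under 0.05, except for 1 gene that is not reported here. Batch codes and groups come from the titles and the labels.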

Additional observations from a re-analysis of the deposited data

Results flagged for a closer look

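Among the 6 tRF-GluCTC embryos, Dnmt3b in replicate 5 stood apart from the others, at 37.7 CPM where the group median was 14.6 CPM. Its gap to the nearest embryo was 0.739 of the range of the group, above the 95% critical value of 0.625 for 6 values by Dixon's test. Of the 9 members looked at in that group 1 was past that value, and chance gives about 1 in 20 groups. The same embryo had the lowest Dppa3, Tet3, Dnmt1 and Uhrf1 of its group and the second lowest total count, 1298147. What part the depth has in the value was not tested.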

How the results depend on the processing

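No member passed in any of the 5 comparisons under the 63 alternatives of these counts, which covered scaling, low-value filters, the batch term, DESeq2, quality weights, left-out batches and left-out embryos, while calls among all genes ran from 0 to 18 with low protein RNA (0 without control replicate 22) and from 0 to 10 with antisense. A further fit, named the replicate block here, added a number in the title to the model as a term beside batch. For 2-cell embryos this was the F number, and for 4-cell embryos the number at the start of the title. The fit called 0 members in all 5 comparisons. Same-numbered embryos of different batches share that term, so embryos alike in both batch and number were not fitted as a block of their own. Same-numbered embryos had a median correlation of -0.0092 with sperm RNA, 0.097 with tRFs and -0.15 at the 4-cell stage, against -0.028, -0.056 and -0.16 for other numbers, with 25 of 160, 52 of 104 and 1 of 19 same-numbered pairs over 0.1. In no table was every same-numbered pair over 0.1, and by that strict rule the numbers were left out of the main fits. Pairs of single embryos could hardly all pass such a rule, so it does not decide whether the numbers pair embryos. In the tRF table same-numbered embryos were closer by median. The main p-values of that table treat embryos as independent and do not account for this closeness. Chosen after seeing the data were the fits without low protein replicate 36, the batch tests with embryos or batches left out, and the pair tests without antisense replicates 9 and 19 or control replicates 22 and 26. The count of 3 members that differed between sperm RNA batches was 0 without batch C and 0 without batch E, and 2 to 3 when 1 embryo was left out. The 4-cell count of 0 was 2 without antisense replicates 9 and 19, and 0 to 1 when 1 embryo was left out (Dnmt3l without antisense replicate 19, limma Benjamini-Hochberg adjusted p = 0.0481). With voom and quality weights Trim28 passed between sperm RNA batches (Benjamini-Hochberg adjusted p = 0.0203) and Uhrf1 did not (0.0668). The 8 partner correlations that passed by Pearson's r were 2 by Spearman's rho, 7 with a pseudocount of 5, 6 without the 2 farthest embryos, 7 without antisense replicates 9 and 19 and 9 without control replicates 22 and 26. The correlation of Dppa3 and Uhrf1 with tRFs was 0.14 without the 2 farthest embryos. All 45 levels recomputed moved by less than the spread between embryos. Of 460 log2 fold changes recomputed other than by leaving out single embryos, 48 changed sign, none of them past the threshold, and the cause was not tested. With low protein sperm RNA, log2 values of opposite sign were Uhrf1 0.049 (no batch term), Tet3 0.0059, Uhrf1 0.0044 and Dnmt3b 0.047 (replicate block), Dppa3 -0.027 (voom with sample quality weights). With low protein sperm RNA, sign also turned for Dnmt3b 0.083 (without control replicates 22 and 26), Dppa3 -0.0089 (without low protein replicate 36), Uhrf1 0.026 and Dnmt3b 0.036 (without batch A). With low protein sperm RNA, further turned values were Tet3 0.040 (without batch B), Dnmt3a -0.012 (without batch C), Dppa3 -0.041 and Dnmt3b 0.020 (without batch D). With low protein sperm RNA, turned values included Dppa3 -0.0087, Tet3 0.025 and Uhrf1 0.26 (without batch E), Dppa3 -0.037 and Dnmt3b 0.049 (without batch F). With tRF-GlyGCC, log2 values of opposite sign were Zfp57 -0.0061, Trim28 0.012 and Dnmt3l -0.025 (replicate block), Dnmt3l -0.024 (voom with sample quality weights), Zfp57 -0.16 (without batch G). With tRF-GlyGCC, sign also turned for Dnmt3l -0.11 (without batch H). With tRF-GluCTC, log2 values of opposite sign were Zfp57 0.13 and Dnmt3l 0.10 (no batch term), Zfp57 0.045 (replicate block), Zfp57 0.37, Dnmt1 0.072 and Dnmt3l 0.19 (voom with sample quality weights). With tRF-GluCTC, sign also turned for Dnmt3l 0.041 (without batch G). Between the tRFs, log2 values of opposite sign were Zfp57 -0.0038 and Dnmt3l -0.00067 (no batch term), Dppa3 -0.083, Zfp57 -0.051 and Dnmt3b -0.033 (replicate block), Dppa3 -0.26, Zfp57 -0.31, Tet3 -0.32, Uhrf1 -0.058, Dnmt3a -0.019, Dnmt3l -0.21 and Dnmt3b -0.45 (voom with sample quality weights). With antisense, log2 values of opposite sign were Dnmt3l -0.064 (no batch term), Dnmt3a -0.030 (array quality weights), Dnmt3l -0.068 (without antisense replicates 9 and 19). With antisense, sign also turned for Dnmt3l -0.12 and Dnmt3a -0.12 (without batch N). Leaving out 1 embryo at a time spanned 0 on the log2 scale for low protein sperm RNA in Dnmt3b -0.10 to 0.084, Dppa3 -0.048 to 0.034, Tet3 -0.074 to 0.032 and Uhrf1 -0.12 to 0.080. Leaving out 1 embryo at a time spanned 0 on the log2 scale for tRF-GlyGCC in Dnmt3l -0.12 to 0.20, Trim28 -0.16 to 0.033 and Zfp57 -0.12 to 0.31. Leaving out 1 embryo at a time spanned 0 on the log2 scale for tRF-GluCTC in Dnmt1 -0.23 to 0.0048, Dnmt3l -0.21 to 0.13, Trim28 -0.091 to 0.32 and Zfp57 -0.29 to 0.15. Leaving out 1 embryo at a time spanned 0 on the log2 scale for tRF-GlyGCC against tRF-GluCTC in Dnmt3b -0.25 to 0.43, Dnmt3l -0.18 to 0.24, Dppa3 -0.14 to 0.29, Trim28 -0.38 to 0.040 and Zfp57 -0.12 to 0.38. Leaving out 1 embryo at a time spanned 0 on the log2 scale for antisense in Dnmt3a -0.012 to 0.10 and Dnmt3l -0.044 to 0.18. Low counts limit Dnmt3b, with 0 counts in 9 of the 131 2-cell embryos, and 6 tRF-GluCTC embryos limit every comparison they enter.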

Other observations

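Outside the planned pairs, Tet3 and Uhrf1 varied together across embryos once group and batch means were removed, with r = 0.66 over 88 sperm RNA embryos, 0.60 over 43 tRF embryos and 0.49 over 55 4-cell embryos. This pair was chosen after its values were seen, from 36 pairs of members, and is given as a description. Tet3 and Dnmt3a had r = 0.54 and 0.59 in the 2-cell tables and -0.048 at the 4-cell stage. Both members of a pair come from the same library, so they share its depth and scaling.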
